A study of Mus musculus with 10 samples.

Results

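The genes described here are the Runx family of mouse regulatory T cells (Tregs): Runx1, Runx2 and Runx3, which encode DNA-binding transcription factors, and Cbfb, which encodes the non-DNA-binding partner of all of them. Their members in the data are the accessible regions (peaks) that lie in the gene body or within 10 kb of it on the GRCm38 build, and there were 91 of them among 97385 peaks in all. Runx1 had 40 peaks, Runx2 35, Runx3 11 and Cbfb 5, and all 91 held enough counts to be tested. The gene bodies alone held 87 of these peaks, and a window of 50 kb on each side held 124.

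Accessibility was measured by ATAC-seq, in which the Tn5 transposase cuts and tags open DNA, to ask how loss of the lipid kinase Vps34 alters Treg chromatin in spleen and lung. CD4+Foxp3-YFP+TCRb+ cells were sorted from 10-day-old mice. All groups carried the Foxp3 Cre allele, so that Cre acts in cells that express Foxp3. Controls were Pik3c3 +/+ or Pik3c3 +/fl, and Vps34-deficient Tregs came from Pik3c3 fl/fl mice, Pik3c3 being the gene that encodes Vps34. The labels gave 2 control and 4 Vps34-deficient libraries from spleen and 2 of each from lung. In the study's text these spleen numbers are reversed, and grouping here follows the labels. The study counts its samples as mice, and the sources used here do not say whether spleen and lung libraries came from the same mice.

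Runx factors bind short DNA elements with the core TGTGGT or TGCGGT, and Cbfb raises the affinity of that binding. In T cells, Runx1 and Runx3 act in the choice between CD4 and CD8 lineages, and Runx complexes with Cbfb bind regulatory DNA of Foxp3 and help to maintain its expression, while Runx2 is best known as the regulator of bone formation. Each Runx gene has a distal and a proximal promoter that give proteins with different N termini, and the distal one is the main one used in T cells for Runx3.

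The distal promoters are shown first because the Runx3 one lost accessibility in lung and because the DNA there holds the family's own binding core. The 300-base promoter windows of RefSeq (GRCm38.p6) matched all 4 genes. They are printed 5′ to 3′ on the strand of the gene, with TGTGGT and TGCGGT, read on either strand (ACCACA and ACCGCA on the other), in capitals.
Runx1 distal promoter, chr16:92826025-92826324, minus strand: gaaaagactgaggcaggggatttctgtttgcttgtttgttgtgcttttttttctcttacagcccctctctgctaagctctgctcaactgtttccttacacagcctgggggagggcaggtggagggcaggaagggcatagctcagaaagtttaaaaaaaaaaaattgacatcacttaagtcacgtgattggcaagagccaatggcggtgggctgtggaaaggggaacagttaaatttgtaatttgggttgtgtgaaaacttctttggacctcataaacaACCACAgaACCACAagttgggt
Runx2 distal promoter, chr17:44814578-44814877, minus strand: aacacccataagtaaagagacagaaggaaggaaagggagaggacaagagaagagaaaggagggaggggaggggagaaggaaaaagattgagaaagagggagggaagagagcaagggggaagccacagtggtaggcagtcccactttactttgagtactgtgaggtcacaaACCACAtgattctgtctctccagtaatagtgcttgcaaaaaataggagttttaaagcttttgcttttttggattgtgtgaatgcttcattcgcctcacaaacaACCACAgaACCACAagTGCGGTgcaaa
Runx3 distal promoter, chr4:135120395-135120694, plus strand: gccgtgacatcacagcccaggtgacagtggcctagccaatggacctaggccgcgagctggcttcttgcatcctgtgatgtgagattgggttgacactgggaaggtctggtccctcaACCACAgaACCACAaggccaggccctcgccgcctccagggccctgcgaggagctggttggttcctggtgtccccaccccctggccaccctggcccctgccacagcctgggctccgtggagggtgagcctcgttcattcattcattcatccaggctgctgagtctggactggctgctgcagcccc
The longest stretch common to all 3 windows was the 18 bases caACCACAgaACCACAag, which hold the core in tandem. This run was found in 4 of 32851 RefSeq promoter windows, those of the 3 Runx genes and of Gm16225, a transcript that overlaps Runx3. TGTGGT itself was in 16.8% and TGCGGT in 6.45% of these windows. The RefSeq windows of the proximal promoters of Runx1 and Runx3 and of the Cbfb promoter held neither core.

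The remaining sequences are the central 300 bases of the 3 peaks, 1 in each Runx gene, that were lower in Vps34-deficient lung Tregs and held both a Runx core and an AP-1 element (TGACTCA, or TGAGTCA on the other strand). They are printed from the plus strand, with both elements in capitals. Runx1 and Runx2 lie on the minus strand.
Runx1 +172.1 kb, chr16:92653901-92654200: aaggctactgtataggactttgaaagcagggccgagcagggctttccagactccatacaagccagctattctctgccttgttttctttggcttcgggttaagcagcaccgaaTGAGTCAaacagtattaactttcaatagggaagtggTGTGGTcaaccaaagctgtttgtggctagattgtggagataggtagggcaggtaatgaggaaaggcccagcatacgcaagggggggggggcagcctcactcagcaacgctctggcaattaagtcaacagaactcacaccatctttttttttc
Runx2 +205.7 kb, chr17:44608961-44609260: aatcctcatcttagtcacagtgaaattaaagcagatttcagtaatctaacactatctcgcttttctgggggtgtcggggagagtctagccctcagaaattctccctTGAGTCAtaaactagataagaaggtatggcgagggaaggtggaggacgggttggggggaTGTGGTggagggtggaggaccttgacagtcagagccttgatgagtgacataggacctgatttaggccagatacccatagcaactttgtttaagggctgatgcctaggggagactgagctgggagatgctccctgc
Runx3 +48.6 kb, chr4:135169113-135169412: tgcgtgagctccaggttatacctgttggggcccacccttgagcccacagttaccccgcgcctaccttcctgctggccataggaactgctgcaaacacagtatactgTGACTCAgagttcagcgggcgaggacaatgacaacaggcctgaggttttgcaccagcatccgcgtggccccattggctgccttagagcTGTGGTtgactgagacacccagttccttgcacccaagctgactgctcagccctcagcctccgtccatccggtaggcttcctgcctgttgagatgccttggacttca
Peaks are named by the distance of their centre from the annotated 5′ end of the gene, counted along the gene. The elements were 29 bases apart in the Runx1 window, 52 in the Runx2 window and 81 in the Runx3 window. A match to a core is a description of the sequence and not evidence of a bound factor.

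Runx1 spans chr16:92601466-92826149 on the minus strand, and 36 of its 40 peaks lay in introns. Runx2 spans chr17:44495987-44814797 on the minus strand. Of its 35 peaks, 6 lay in a region of the gene that only a noncoding transcript covers. Its distal start site had no peak. The tallest peak in its window, 37.5 kb in, holds the start site of Supt3, a gene on the other strand, and was left out of the level of Runx2 given below. Runx3 spans chr4:135120652-135177990 on the plus strand and Cbfb chr8:105170674-105217989 on the plus strand, where 1 of the 5 peaks holds the start of the neighbour D230025D16Rik.

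Library totals ran from 9405823 to 22439699 counts, and values are counts scaled to the same library total (CPM). Even numbers made up 91.5% to 96.5% of each library's counts. Counting both mates of a pair would give such numbers, which was not tested, and counts would then overstate independent fragments. Of the 6 Treg and T cell markers, 5 had a peak at a start site, the exception being Foxp3, which had 12 peaks in its window. No B cell marker had a start-site peak, nor did Lyz2, Csf1r, Spi1, Ncr1, Klrb1c, Sftpc or Cdh5. Start-site peaks were present at Epcam, with group means of 18.8 to 24.4 CPM, Cd8b1 (7.75 to 11.4), Kdr (3.95 to 5.80), Cd8a (1.45 to 2.85) and Itgam (0.962 to 1.56). The peaks of the 4 myeloid genes summed to 60.1 to 66.5 CPM in spleen controls, 50.4 to 59.8 in Vps34-deficient spleen, 59.96 to 67.3 in lung controls and 46.7 to 48.9 in Vps34-deficient lung. Those of the 4 CD8 T and NK cell genes summed to 54.2 to 60.5, 63.4 to 71.0, 66.7 to 75.1 and 87.1 to 88.5 CPM in the same order. The peaks of the 4 B cell genes summed to 127.8 to 134.3, 122.5 to 139.0, 118.6 to 128.6 and 113.3 to 116.0 CPM. The peaks of the 6 Treg and T cell genes summed to 1096 to 1182, 1034 to 1208, 962 to 1228 and 898 to 1031 CPM. By the test described below, 7 of their 113 peaks were lower and 0 higher in Vps34-deficient lung, against 3.74% and 1.22% of all peaks. Of these 7, 5 were in Ikzf2. The myeloid list and the CD8 T and NK cell list thus differed with genotype in both tissues and the B cell list in lung. The part of all these lists in the results below was not tested.

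Vps34 deficiency lowered accessibility at 11 peaks of the family in lung Tregs, 4 in Runx1, 5 in Runx2 and 2 in Runx3. The count was 4 without lung control 2 or Vps34-deficient lung library 1, 7 without Vps34-deficient lung library 2 and 17 without lung control 1. A call needed an adjusted p (Benjamini-Hochberg, over all 97109 peaks tested) below 0.05 together with a log2 fold change beyond 0.5 in either direction, by the edgeR quasi-likelihood test. The 11 peaks were 12.1% of the 91, where 3.74% of all peaks were called lower in this comparison. None of the 91 was called higher, where 1.22% of all peaks were. At an unadjusted p below 0.05 the counts were 27 lower and 0 higher, where 20.3% of all peaks passed in either direction, and DESeq2 called the same numbers as edgeR, 11 and 0. The median log2 fold change was -0.29 over the 91 peaks and 0.02 over all peaks. These are bulk libraries, in which fewer cells with an open element and a less open element in each cell cannot be told apart.

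In spleen, 2 peaks of Runx1 were called lower, which is 2.20% of the 91 against 1.02% of all peaks. No member was called higher, against 0.441% of all peaks, and DESeq2 called 3 lower and 0 higher. At an unadjusted p below 0.05, 9 members were lower and 3 higher, or 12 of 91, where 14.3% of all peaks passed. Both spleen calls were also called in lung. All 11 peaks lower in lung were below 0 in spleen too, where their median log2 fold change was -0.79, against -1.10 in lung. Of all 91 members, 54 were below 0 in spleen, against 43.5% of all peaks, with medians of -0.09 and 0.05. How often calls of 1 tissue recurred in the other was not computed over all peaks, so this agreement is a description only. Every Vps34-deficient library lay below every control at 38 of the 91 peaks in lung and 17 in spleen, against 22.0% and 11.1% of all peaks, and above at 9 and 8, against 23.8% and 15.0%.

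**Figure D1:**
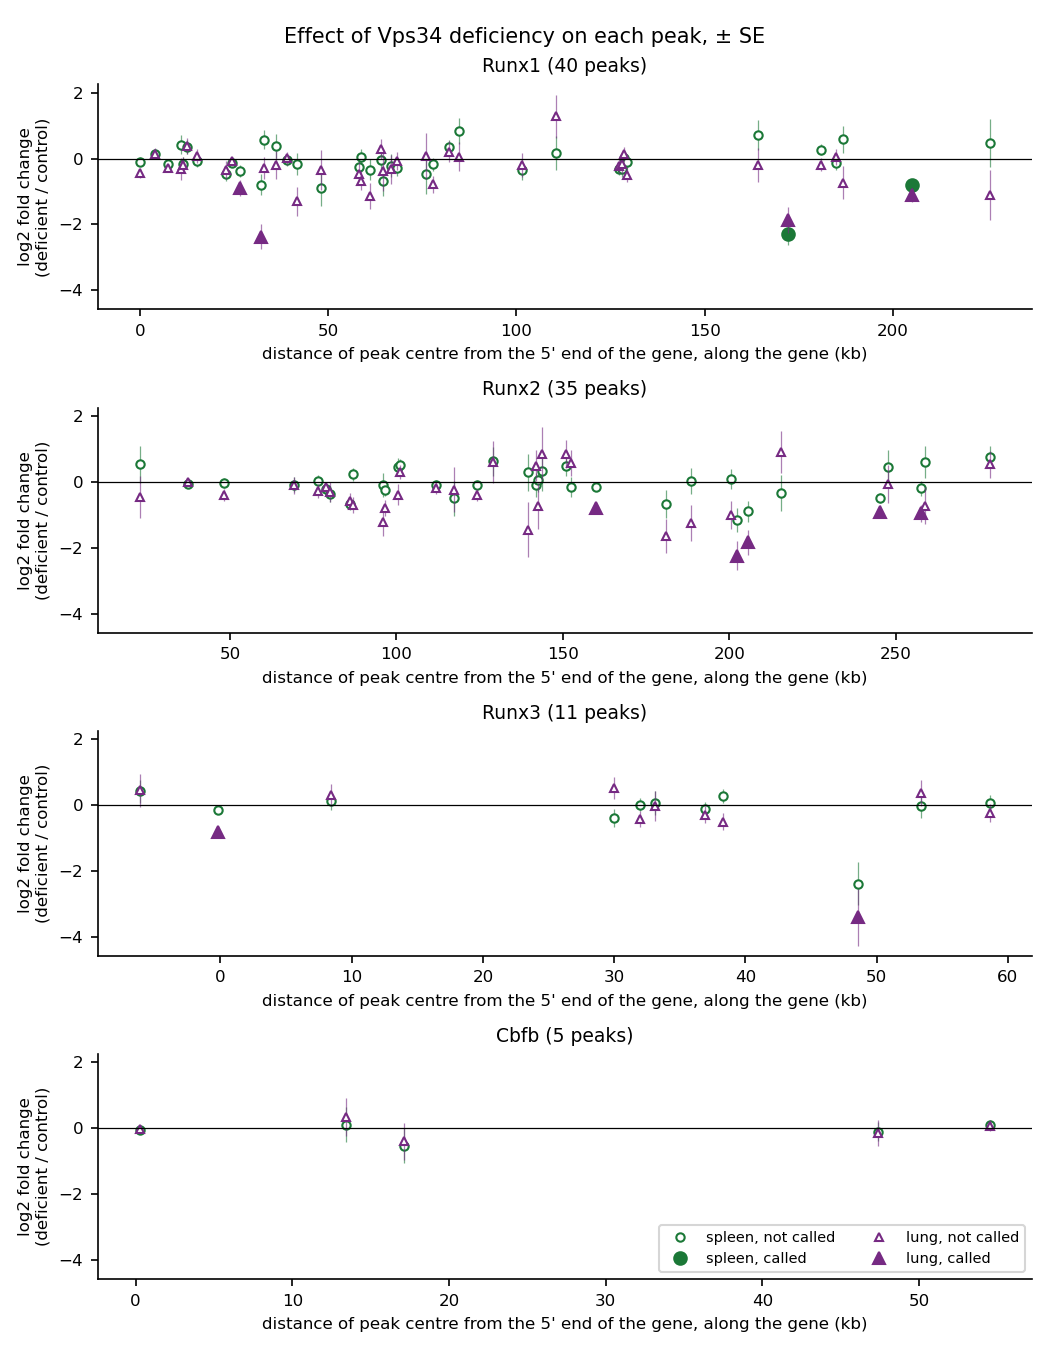
Log2 fold change of Vps34-deficient over control Tregs (y axis, ± SE) at each of the 91 peaks against the distance of the peak from the 5′ end of its gene in kb (x axis), with circles for spleen and triangles for lung and filled symbols for called peaks. All filled symbols lie below 0, with 4 called in Runx1, 5 in Runx2 and 2 in Runx3 in lung, and none in Cbfb.

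With tissue as a term in an additive model, 10 members were lower in Vps34-deficient Tregs and 0 were higher, against 4.06% and 3.52% of all peaks. DESeq2 gave the same numbers, and 21 were lower and 4 higher at an unadjusted p below 0.05, or 25 of 91, where 24.3% of all peaks passed. Of the peaks called there, Runx2 +86.1 kb and Runx2 +180.9 kb (log2 fold change -1.08, edgeR adjusted p = 0.0416) were not called in either tissue alone. The first read 7.22 and 6.47 CPM in spleen controls, 4.31, 4.40, 4.38 and 4.23 in Vps34-deficient spleen, 8.51 and 8.61 in lung controls and 6.497 and 5.08 in Vps34-deficient lung. The groups did not overlap in either tissue, and the averaged log2 fold change was -0.63 ± 0.16 (SE; edgeR adjusted p = 0.0139), a call lost, among the libraries left out in turn, without spleen control 1.

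In Runx1, the intronic peak at +172.1 kb (chr16:92653855-92654247) had the larger spleen change of the 2 called there. Spleen controls read 4.90 and 5.17 CPM there, and Vps34-deficient spleen read 0.974, 0.734, 0.903 and 1.58. Lung controls stood at 8.72 and 12.4 CPM, against 1.30 and 4.87 without Vps34. The groups did not overlap in either tissue, and all 4 spleen libraries labelled Vps34-deficient were low. The log2 fold change was -2.28 ± 0.36 in spleen (SE; edgeR adjusted p = 0.000772) and -1.86 ± 0.40 in lung (edgeR adjusted p = 0.00671). The lung call was lost without lung control 2 or without Vps34-deficient lung library 1, with fold changes from -2.97 to -1.07 on leaving out each library.

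The peak at +205.1 kb (chr16:92620679-92621401), the other one called in both tissues, held 2 AP-1 elements and no Runx core in its central window. Its values were 13.1 and 12.0 CPM in spleen controls and 7.51, 6.73, 6.41 and 8.47 in Vps34-deficient spleen. Lung controls read 14.0 and 19.2 CPM, and Vps34-deficient lung 7.96 and 7.83. The groups were apart in both tissues, and the log2 fold change was -0.79 ± 0.18 for spleen (edgeR adjusted p = 0.0256) and -1.10 ± 0.22 for lung (edgeR adjusted p = 0.00404). Among the libraries left out in turn, the spleen call was lost without either spleen control or Vps34-deficient spleen library 2, and the lung call without lung control 2 or Vps34-deficient lung library 1.

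A pair of intronic Runx1 peaks nearer the distal promoter were called in lung. At +32.2 kb (chr16:92793738-92794128) lung controls read 7.44 and 12.8 CPM, and Vps34-deficient lung libraries read 2.27 and 1.69. This peak was 3.92 and 3.44 CPM in spleen controls and 2.64, 1.22, 1.896 and 2.87 in Vps34-deficient spleen. The controls were thus above the Vps34-deficient libraries in each tissue, by a wider margin in lung. The log2 fold change was -2.37 ± 0.38 in lung (edgeR adjusted p = 0.000464), a call kept on leaving out each library, and -0.79 ± 0.31 in spleen (edgeR adjusted p = 0.223). The difference between the tissues, -1.58 ± 0.50, had an edgeR adjusted p of 0.453 and was not called (unadjusted p = 0.00398).

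At +26.7 kb (chr16:92799223-92799741), lung controls read 12.1 and 19.1 CPM and Vps34-deficient lung libraries 9.75 and 7.41, without overlap. The log2 fold change was -0.89 ± 0.23 (edgeR adjusted p = 0.0256), and the settings that ended the call included leaving out lung control 2 or either Vps34-deficient lung library and fitting lung alone. The central windows of this peak and of the one at +32.2 kb held neither a Runx core nor an AP-1 element.

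In Runx2, the 5 peaks called lower in lung lay between 160.0 and 257.5 kb from the 5′ end, downstream of the proximal start sites, and 2 of them lay in the part that only a noncoding transcript covers. At +160.0 kb (chr17:44654384-44655132), the strongest of them, lung controls read 40.0 and 43.2 CPM and Vps34-deficient lung libraries 24.4 and 24.8. Spleen libraries read 29.5 and 25.2 CPM in controls and 22.0, 24.8, 26.9 and 24.0 in Vps34-deficient Tregs. Only in lung were the groups apart at this peak, and Vps34-deficient lung Tregs were at the level of spleen. The log2 fold change was -0.78 ± 0.14 in lung (edgeR adjusted p = 0.00112), a call kept on leaving out each library, and -0.16 ± 0.12 in spleen (edgeR adjusted p = 0.583). The difference between these was -0.62 ± 0.18 with an edgeR adjusted p of 0.42.

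At +202.2 kb (chr17:44612482-44612790), lung controls read 5.32 and 6.49 CPM and Vps34-deficient lung libraries 1.62 and 0.847. The spleen values were 2.18 and 3.44 CPM in controls and 1.39, 1.35, 0.722 and 1.58 in Vps34-deficient Tregs. Controls were higher in both tissues, and the log2 fold change was -2.24 ± 0.45 in lung (edgeR adjusted p = 0.00349) and -1.17 ± 0.36 in spleen (edgeR adjusted p = 0.107). The lung call was lost without Vps34-deficient lung library 2.

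The neighbouring peak at +205.7 kb (chr17:44608946-44609275), whose sequence is printed above, read 5.10 and 9.88 CPM in lung controls and 1.62 and 2.75 in Vps34-deficient lung. In spleen it read 2.85 and 3.58 CPM in controls and 1.39, 1.96, 1.62 and 1.87 in Vps34-deficient Tregs. The groups did not overlap in either tissue. The log2 fold change was -1.84 ± 0.38 in lung (edgeR adjusted p = 0.00465) and -0.90 ± 0.32 in spleen (edgeR adjusted p = 0.166), and the lung call was lost without lung control 2 or Vps34-deficient lung library 1.

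At +245.3 kb (chr17:44569040-44570020), with TGTGGT at 2 places in its central window, lung controls read 30.0 and 26.2 CPM and Vps34-deficient lung libraries 13.8 and 16.7. Spleen controls read 11.9 and 13.4 CPM and Vps34-deficient spleen libraries 8.07, 8.56, 8.85 and 10.5. Lung controls were above every other library. The lung log2 fold change was -0.90 ± 0.19 (edgeR adjusted p = 0.00471), lost without Vps34-deficient lung library 1. The fifth called peak, at +257.5 kb, had a lung log2 fold change of -0.95 ± 0.26 (edgeR adjusted p = 0.033).

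In Runx3, a peak at the distal promoter and an intronic peak were called lower in lung. The distal promoter peak (chr4:135120133-135120733), which holds the start site, was the tallest of the gene. It read 43.4 and 56.6 CPM in lung controls and 30.0 and 27.5 in Vps34-deficient lung. In spleen it read 37.4 and 38.8 CPM in controls and 27.1, 36.9, 35.4 and 38.6 in Vps34-deficient Tregs. The lung groups were apart, with a log2 fold change of -0.82 ± 0.15 (edgeR adjusted p = 0.00214), while the spleen groups overlapped, at -0.14 ± 0.13 (edgeR adjusted p = 0.696). The lung call was lost without lung control 2, where the fold change was -0.57. The difference between tissues, -0.68 ± 0.20, had an edgeR adjusted p of 0.42 (unadjusted p = 0.00253), so that a larger loss in lung than in spleen was not established over all peaks tested.

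The intronic Runx3 peak at +48.6 kb (chr4:135169115-135169411) was weak in all libraries. It held 30 and 24 counts in spleen controls, 0, 2, 16 and 2 in Vps34-deficient spleen, 26 and 44 in lung controls and 4 and 2 in Vps34-deficient lung, which correspond to 1.34 and 1.65, 0, 0.122, 0.722 and 0.144, 2.76 and 3.10, and 0.325 and 0.212 CPM. Controls were above Vps34-deficient libraries in both tissues. The fitted log2 fold change was -3.41 ± 0.86 in lung (edgeR adjusted p = 0.0195) and -2.39 ± 0.65 in spleen (edgeR adjusted p = 0.0621). At these counts the sizes are uncertain, and the lung call was lost without lung control 2 or without either Vps34-deficient lung library.

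**Figure D2:**
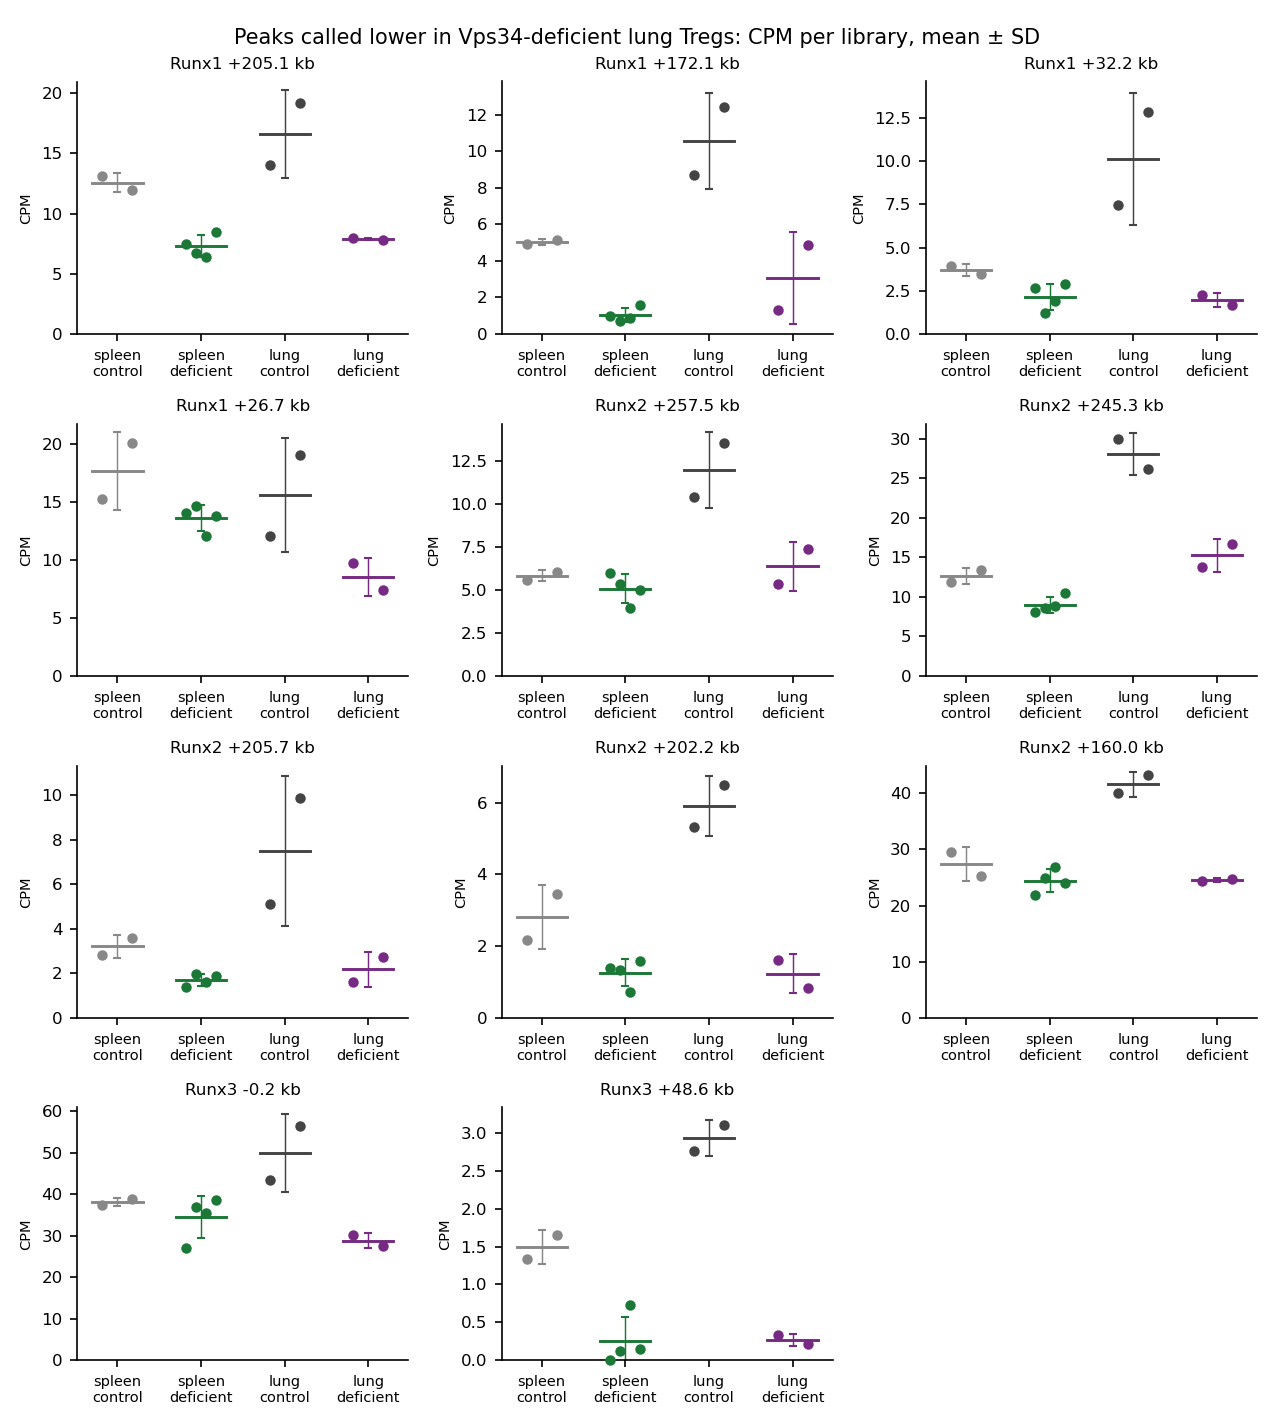
CPM of each library (points) with the group mean and SD (lines and bars) at the 11 peaks called lower in Vps34-deficient lung Tregs, 1 panel a peak, each y axis starting at 0. In every panel both lung control libraries lie above both Vps34-deficient lung libraries, for example 8.72 and 12.4 against 1.30 and 4.87 CPM at Runx1 +172.1 kb.

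Across these 11 peaks, the central 300 bases held TGTGGT in 6 and an AP-1 element in 5, with both in 3. TGTGGT was in 26.5%, AP-1 in 9.66% and a Runx core together with AP-1 in 3.14% of 97250 peak windows of that length. In the other 80 member peaks, TGTGGT was in 22 and AP-1 in 12. TGCGGT was in none of the 11 and in 5 of the other 80, the ETS core CCGGAA in none and in 6, and the CRE motif TGACGTCA in none of the 91, where all peaks had shares of 5.51%, 8.17% and 0.849%. Both strands were read, and a Runx and an AP-1 match can share an end base. The windows of the 11 peaks were not tested against the rest, since the members were chosen with results known.

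The other promoters of the family did not pass the test for genotype. The distal promoter peak of Runx1 (chr16:92825422-92826579) read 41.5 and 42.8 CPM in spleen controls, 34.1, 41.3, 42.2 and 40.5 in Vps34-deficient spleen, 39.5 and 55.2 in lung controls and 41.4 and 29.6 in Vps34-deficient lung. The groups overlapped in both tissues, where the log2 fold change was -0.09 ± 0.13 (edgeR adjusted p = 0.834) and -0.44 ± 0.16 (edgeR adjusted p = 0.113). The peak at its proximal start (chr16:92697220-92697657) read 18.6 and 16.6, 18.3, 18.7, 15.98 and 17.8, 9.36 and 15.9, and 13.1 and 15.7 CPM in the same order, again with overlap. The log2 fold change was 0.01 ± 0.17 in spleen and 0.13 ± 0.21 in lung (edgeR adjusted p = 0.993 and 0.77). A neighbouring peak at +129.3 kb, in a UTR exon and holding no annotated start, read 11.2 and 17.2 CPM in lung controls and 9.91 and 10.8 in Vps34-deficient lung, without overlap. Its lung log2 fold change of -0.50 ± 0.22 did not pass (edgeR adjusted p = 0.199, unadjusted p = 0.0323), and in spleen, where the groups overlapped, it was -0.10 ± 0.18.

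The Runx2 peak at the proximal starts (chr17:44735249-44736619) read 35.3 and 29.8 CPM in spleen controls, 28.2, 27.2, 29.7 and 26.3 in Vps34-deficient spleen, 31.3 and 33.5 in lung controls and 30.9 and 27.9 in Vps34-deficient lung. The groups were narrowly apart in each tissue, and the log2 fold changes of -0.22 ± 0.11 and -0.16 ± 0.13 did not pass (edgeR adjusted p = 0.362 and 0.525). Another Runx2 proximal start has its own peak, at +80.1 kb. Its log2 fold changes were -0.38 ± 0.24 in spleen and -0.32 ± 0.30 in lung (edgeR adjusted p = 0.526 and 0.586). At the proximal start of Runx3 (chr4:135152268-135153099) the log2 fold change was 0.01 ± 0.20 in spleen and -0.43 ± 0.24 in lung (edgeR adjusted p = 0.987 and 0.327). That peak read 10.7 and 10.3, 10.3, 9.79, 12.6 and 9.62, 10.4 and 15.8, and 12.0 and 7.83 CPM in the 4 groups, which overlapped.

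Cbfb had no called genotype effect. Its promoter peak (chr8:105170132-105171836), the one with the highest mean CPM of the 91, read 71.9 and 78.7 CPM in spleen controls, 71.6, 73.2, 79.1 and 65.5 in Vps34-deficient spleen, 63.8 and 73.0 in lung controls and 68.2 and 69.4 in Vps34-deficient lung. All groups overlapped, and the log2 fold changes were -0.06 ± 0.09 and -0.02 ± 0.11 (edgeR adjusted p = 0.853 and 0.953). Of the 5 Cbfb peaks, 0 passed an unadjusted p below 0.05 or the DESeq2 test in either tissue. The smallest p for genotype was at +17.1 kb, where the log2 fold change was -0.52 ± 0.54 in spleen and -0.39 ± 0.56 in lung (edgeR adjusted p = 0.737 and 0.736).

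**Figure D3:**
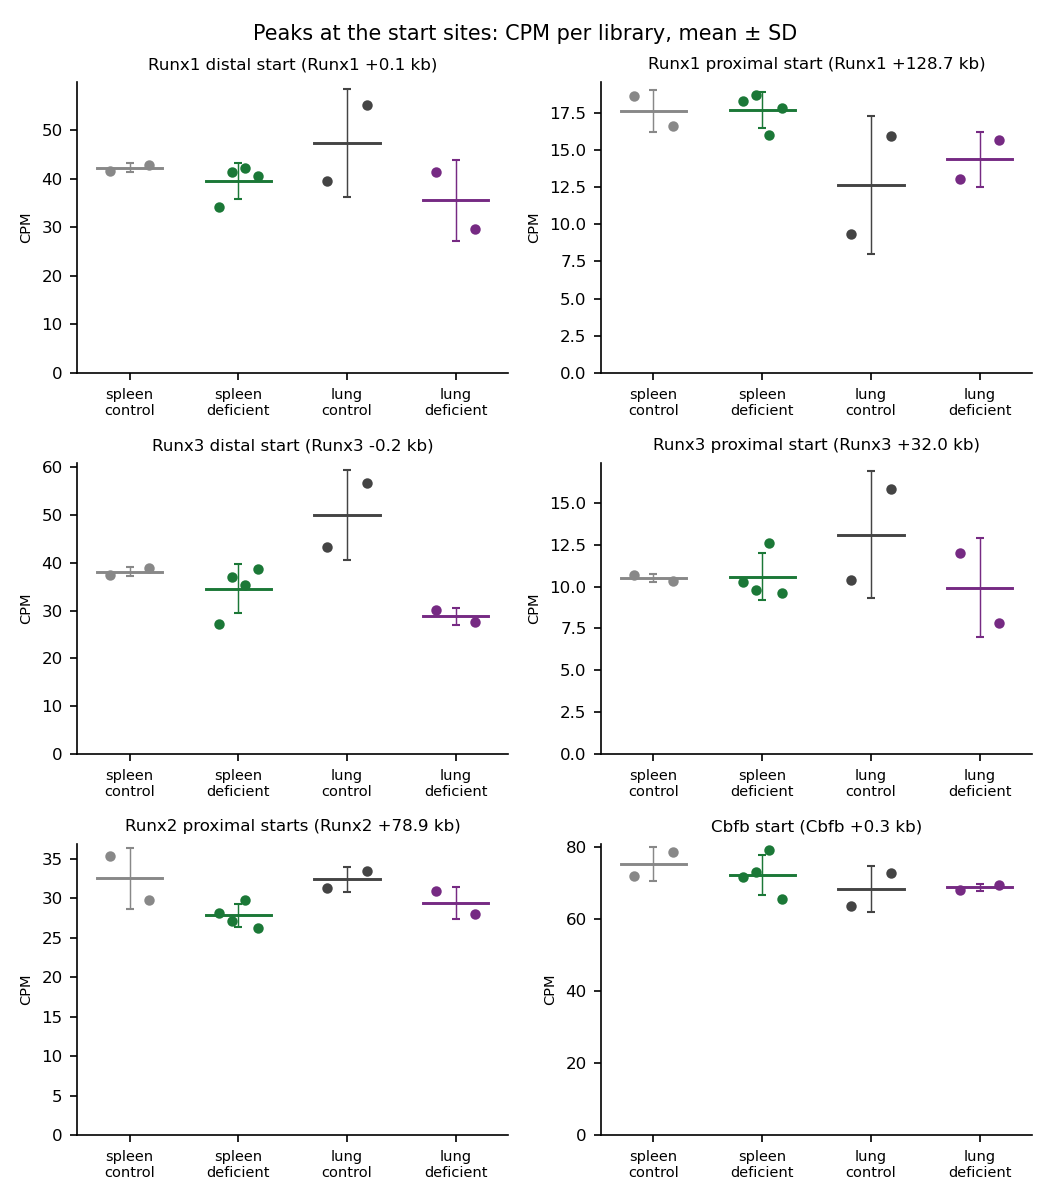
CPM of each library (points) with the group mean and SD (lines and bars) at 6 peaks at start sites of the 4 genes, each y axis starting at 0. Only at the distal start of Runx3 was the lung difference called, from 43.4 and 56.6 CPM in controls to 30.0 and 27.5 in Vps34-deficient Tregs.

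Distal and proximal promoter use was compared as the ratio of CPM per kb of peak within each library, as a description. For Runx3 the distal peak was 4.85 and 5.21 times the proximal one in spleen controls, 3.65, 5.23, 3.88 and 5.56 times in Vps34-deficient spleen, 5.76 and 4.96 in lung controls and 3.46 and 4.86 in Vps34-deficient lung. For Runx1 the ratios were 0.843 and 0.976, 0.705, 0.836, 1.0001 and 0.860, 1.60 and 1.31, and 1.198 and 0.716. The distal peak was thus the more accessible per kb in every library for Runx3, while the Runx1 ratio was highest in the lung controls.

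Accessibility of the whole gene was ordered by the summed CPM per kb of peak, leaving out the start sites of other genes. In spleen controls it was 32.7 ± 1.96 for Cbfb (SD, n = 2), 22.03 ± 0.0072 for Runx1, 18.1 ± 0.455 for Runx3 and 14.4 ± 0.148 for Runx2. In lung controls it was 30.4 ± 1.94, 24.0 ± 4.48, 21.8 ± 4.11 and 19.2 ± 1.92 (n = 2). The ranges of Runx1 (20.8 to 27.2) and Runx3 (18.9 to 24.7) overlapped, as did those of Runx3 and Runx2 (17.8 to 20.5), while those of Runx1 and Runx2 did not, and the order Runx1, Runx3, Runx2 held in both lung control libraries. In Vps34-deficient lung the values were 30.6 ± 1.09, 19.8 ± 1.69, 16.01 ± 1.67 and 14.1 ± 0.0416 (n = 2), and in Vps34-deficient spleen 31.3 ± 1.86, 20.4 ± 1.004, 17.3 ± 1.65 and 13.5 ± 0.128 (n = 4). Cbfb, of which the promoter peak made up 92.9%, led in every group. The value for Runx2 was above all other libraries in both lung controls, at 279 and 322 summed CPM against 210 to 228 elsewhere.

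**Figure D4:**
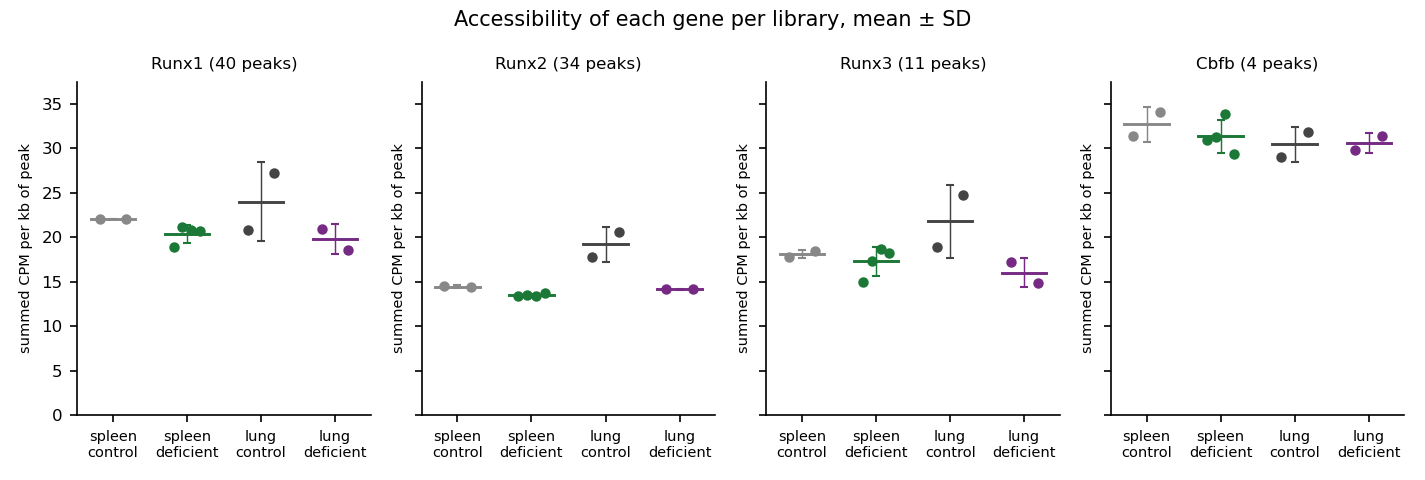
Summed CPM per kb of peak (y axis, from 0) of each gene in each library (points), with the group mean and SD, leaving out peaks at the start of another coding gene. Runx2 stands highest in the lung controls, at 19.2 per kb against 13.5 to 14.4 in the other groups, and Cbfb ranges from 30.4 to 32.7.

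Lung and spleen Tregs differed at peaks of all 4 genes. In control Tregs 13 members were called higher in lung (14.3%) and 2 lower (2.20%), against 11.8% and 3.53% of all peaks, and DESeq2 called 10 and 2. The 13 became 5 without spleen control 1, 8 without spleen control 2 and 6 without lung control 2, and the 2 became 1 without either spleen control or lung control 1. In Vps34-deficient Tregs 10 were higher (11.0%) and 5 lower (5.49%), against 12.5% and 4.72%. DESeq2 called the same numbers there, and without Vps34-deficient lung library 2 they were 6 and 2, while without library 1 the lower count was 2. With a term for replicate number in the model, the higher counts were 8 in control and 5 in Vps34-deficient Tregs. Averaged over genotypes, 14 were higher and 6 lower, against 18.4% and 6.51%. These shares lie near those of all peaks. 6 of the 13 higher calls and both lower calls of control Tregs were also called in Vps34-deficient Tregs. Both comparisons came from 1 fit of all 10 libraries and are not independent. The share of all peaks called in both was not computed, so this overlap is a description only.

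Runx2 had 9 of the 13 members higher in control lung. The intronic peak at +69.3 kb (chr17:44745178-44745749) read 3.65 and 3.86 CPM in spleen controls, 3.89, 3.79, 2.62 and 3.88 in Vps34-deficient spleen, 9.99 and 10.0 in lung controls and 8.77 and 10.2 in Vps34-deficient lung. Every lung library was above every spleen library, and genotype made no visible difference. The tissue log2 fold change was 1.49 ± 0.26 in control (edgeR adjusted p = 0.000416) and 1.48 ± 0.22 in Vps34-deficient Tregs (edgeR adjusted p = 6.3e-05), and both calls were kept under every alternative tried, which include leaving out each library.

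The next peak, at +48.2 kb (chr17:44766243-44766896), read 15.9 and 19.0 CPM in spleen controls, 18.2, 16.4, 14.98 and 18.4 in Vps34-deficient spleen, 27.9 and 41.8 in lung controls and 26.0 and 27.7 in Vps34-deficient lung. Its tissue log2 fold changes were 1.09 ± 0.18 and 0.71 ± 0.16 (edgeR adjusted p = 0.000273 and 0.00247). At +101.2 kb the changes were 1.07 ± 0.22 and 0.85 ± 0.18 (edgeR adjusted p = 0.00169 and 0.00184). The peak at +245.3 kb, described above, was likewise higher in lung in both genotypes, by 1.22 ± 0.18 and 0.81 ± 0.16 (edgeR adjusted p = 0.00012 and 0.00129).

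Peaks lower in lung in both genotypes were found in introns of Runx1 and Runx2. Runx1 +82.1 kb (chr16:92743751-92744253) read 8.24 and 6.75 CPM in spleen controls and 8.62, 10.2, 10.7 and 8.90 in Vps34-deficient spleen, against 2.34 and 3.53 in lung controls and 4.39 and 2.54 in Vps34-deficient lung. The log2 fold changes were -1.25 ± 0.28 and -1.39 ± 0.25 (edgeR adjusted p = 0.00403 and 0.00048), with no overlap of tissues. The control call was lost without spleen control 1. Runx2 +142.4 kb was weak, at 1.78 to 3.25 CPM in spleen and 0.212 to 0.638 in lung. Its log2 fold change was -1.87 ± 0.53 in controls and -2.64 ± 0.54 in Vps34-deficient Tregs (edgeR adjusted p = 0.0179 and 0.00136), and the control call was lost without spleen control 2 or either lung control.

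In Runx1, the peak at +172.1 kb was higher in lung in both genotypes, by 1.16 ± 0.37 and 1.57 ± 0.41 on the log2 scale (edgeR adjusted p = 0.0328 and 0.00843). The control call was lost under 7 of 21 alternatives, DESeq2 among them, and the Vps34-deficient call without lung library 2, where the fold change was 0.45. Vps34-deficient lung library 1, at 1.30 CPM, lay within the range of Vps34-deficient spleen. Also higher was the one at +32.2 kb in controls, by 1.55 ± 0.34 (edgeR adjusted p = 0.00298), against -0.04 ± 0.37 in Vps34-deficient Tregs (edgeR adjusted p = 0.964). That control call was lost without spleen control 1 or lung control 2. The strongest Runx1 peak, at +7.5 kb (chr16:92818383-92818949), read 40.5 and 44.4 CPM in spleen controls and 51.0 and 62.3 in lung controls. Its tissue log2 fold change of 0.50 ± 0.13 (edgeR adjusted p = 0.00964) fell just short of the fold limit. In Vps34-deficient Tregs the values were 34.5, 39.9, 37.1 and 40.9 in spleen and 50.8 and 43.6 in lung, a change of 0.36 ± 0.11.

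Runx3 had no tissue call in control Tregs by edgeR or DESeq2, with 3 of 11 peaks higher and 1 lower at an unadjusted p below 0.05, which 29.2% of all peaks passed in that comparison. In Vps34-deficient Tregs its peak at +53.4 kb was higher in lung by 1.27 ± 0.34 (edgeR adjusted p = 0.0111), a call lost, among the libraries left out in turn, without Vps34-deficient lung library 2. In Cbfb, the weak intronic peak at +17.1 kb read 0.891 and 0.551 CPM in spleen controls, 0.278, 0.489, 0.542 and 0.718 in Vps34-deficient spleen, 2.98 and 1.69 in lung controls and 1.46 and 2.12 in Vps34-deficient lung. It was higher in lung by 1.71 ± 0.58 and 1.84 ± 0.52 (edgeR adjusted p = 0.0447 and 0.0144), and the control call was lost under 15 of 20 alternatives and the Vps34-deficient call under 3, among them leaving out lung library 2. The summed peaks of the lung epithelial and endothelial genes were 58.3 to 70.5 CPM in spleen and 74.2 to 83.9 in lung, and their part in these tissue differences was not tested.

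**Figure D5:**
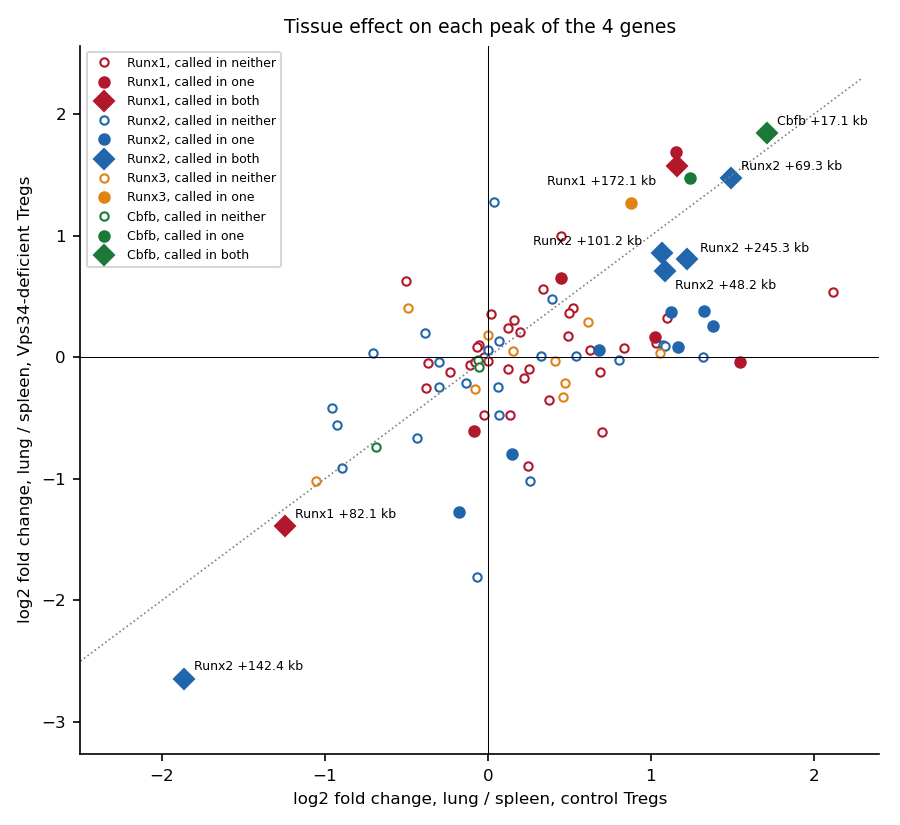
Log2 fold change of lung over spleen in control Tregs (x axis) and in Vps34-deficient Tregs (y axis) at each of the 91 peaks, coloured by gene, with open circles for peaks called in neither genotype, filled circles for 1 and diamonds for both. The 6 labelled diamonds at the upper right and the 2 at the lower left were called in both genotypes, and the dotted line marks equal change.

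The tissue difference in the genotype effect was not called at any member, nor at any peak of the table (0% of 97109 by edgeR). DESeq2 called 0 members as well, and at an unadjusted p below 0.05 the interaction was negative at 7 of 91 members and positive at 0, where 7.27% of all peaks passed and 57.1% of all peaks were negative. The 7 include Runx2 +160.0 kb, Runx3 -0.2 kb and Runx1 +32.2 kb, whose values are given above.

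Other genes of the pathway were read from lists of peaks in the body or within 10 kb. The partners and cofactors (Ets1, Foxp3, Gata3, Tbx21, Tle1, Tle3, Tle4, Kat6a, Ep300, Crebbp, Yap1 and Wwtr1) had 130 peaks, of which 1 was higher and 5 lower in Vps34-deficient lung (3.85% lower) and 1 higher and 1 lower in spleen. The median log2 fold change was -0.12 in lung and 0.03 in spleen. In lung, 3 of the lower peaks and the 1 higher peak were among the 41 of Ets1, an activator that binds DNA together with Runx1. Of the other lower peaks, 1 was in Tbx21 and 1 in Tle3, a Groucho corepressor. At an unadjusted p below 0.05 by edgeR, 13 peaks of this list were higher and 21 lower in lung, and 11 higher and 6 lower in spleen. The 13 target genes had 96 tested peaks, of which 3 were lower in Vps34-deficient spleen (3.12%) and 4 in lung (4.17%). None was called higher by edgeR, while DESeq2 called 0 higher in spleen and 0 in lung, and at an unadjusted p below 0.05, 6 were higher and 9 lower in spleen and 5 higher and 19 lower in lung. The shares of all peaks passing that p in either direction were 14.3% in spleen and 20.3% in lung. Of the 4 lower in lung, Il2, Il4, Il2ra and Ctla4 had 1 each, and of the 3 lower in spleen, Ifng had 2 and Il2 had 1. The lower calls over all peaks were 1.02% for spleen and 3.74% for lung.

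Of all protein-coding genes with at least 5 peaks and a mean of at least 50 summed CPM, those whose summed CPM varied most like Runx1 over the 10 libraries were Nck2 (Pearson r = 0.96), Csrnp1 (0.956) and Crybb1 (0.952). For Runx2 they were Gabpb1 (0.983), Thbs3 (0.973) and Myo1e (0.972), for Runx3 Nck2 (0.982), Itpkb (0.98) and Pecam1 (0.979), and for Cbfb Sesn3 (0.868), P4ha1 (0.865) and Vwa8 (0.859). Among the members themselves, r was 0.947 between Runx1 and Runx3, 0.841 between Runx1 and Runx2, 0.868 between Runx2 and Runx3 and 0.0531, -0.233 and 0.0504 between Cbfb and Runx1, Runx2 and Runx3. These values share libraries and their depth and scaling, were for the other genes the highest of 5102 or 5103 candidates, and are a description only.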

How the data were processed

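ATAC-seq counts per peak were deposited by the authors as 1 table of 97385 peaks and 10 libraries. The authors aligned trimmed paired-end reads with BWA, removed duplicates with Picard, shifted read ends for the Tn5 cut, kept nucleosome-free fragments, called peaks in each sample with MACS2, kept and merged peaks shared between replicates and counted reads in them, so weak peaks of 1 group can be missing. The study's methods name another mouse build than the submitters' processing notes, which give GRCm38, the build of the scaffold names in the table. Raw counts entered edgeR 4.0.16 (R 4.3.3) with TMM scaling, filterByExpr (97109 peaks kept) and the quasi-likelihood test on a 4-group model, and on an additive model for averages. Benjamini-Hochberg adjustment ran over all tested peaks, with calls at adjusted p below 0.05 and absolute log2 fold change above 0.5. The biological coefficient of variation was 17.8%. DESeq2 1.42.0, other scalings, filters, GC offsets, a replicate block and leaving out each library were alternatives. The fits were tested on simulated data. Named peaks were those at start sites, the strongest of each gene, up to 4 called peaks per gene, contrast and direction, and the lowest p where no genotype call was made. Runx2 +257.5 kb, Runx2 +180.9 kb and, in control Tregs, Runx2 +101.2 kb fall outside this. Members and lists were chosen with earlier results of these data known. The peaks of Pik3c3 were not used to check the deletion, because peaks outside the deleted part cannot show it.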

Additional observations from a re-analysis of the deposited data

Results flagged for a closer look

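At Runx2 +69.3 kb, Vps34-deficient spleen library 3 lay apart from the others of its group, at 2.62 CPM against 3.79, 3.88 and 3.89. The gap made up 0.9196 of the range of the group, above the limit of 0.829 for 4 libraries. It was the 1 such case among 36 peaks examined, and chance gives about 1 in 20.

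At Runx2 +86.9 kb, both tissues moved in opposite directions with genotype. Vps34-deficient spleen libraries read 8.90, 8.69, 7.76 and 7.75 CPM, above the controls at 6.95 and 7.16, and Vps34-deficient lung libraries read 4.55 and 4.66, below the controls at 6.38 and 8.33. The difference of the 2 genotype effects was -0.94 ± 0.32 (edgeR adjusted p = 0.482), so it did not pass the test.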

How the results depend on the processing

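Among the named peaks, no called fold change changed sign under the alternatives run. Called peaks outside the naming rule, such as Runx2 +257.5 kb and +180.9 kb, were not followed one by one. Whether the replicate numbers pair the libraries is not known. Correlations of same-numbered deviations lay between -0.0978 and 0.0633, but with 2 libraries in most groups they cannot exclude pairing. Same-numbered spleen and lung libraries were alike in chromosome Y signal. Controls 1 and 2 read 56.9 and 7.03 CPM in spleen and 67.6 and 12.8 in lung. Vps34-deficient libraries 1 and 2 read 9.88 and 64.8 in spleen and 21.4 and 63.4 in lung. With the replicate block, counts of called peaks were 1 (spleen genotype, lower; 2 without the block), 8 (control tissue, higher; 13 without) and 5 (Vps34-deficient tissue, higher; 10 without). The block also ended, among others, the calls at Runx1 +205.1 kb (spleen genotype), Runx1 +26.7 kb (lung genotype), Runx2 +86.1 kb (averaged genotype) and Runx3 +53.4 kb (Vps34-deficient tissue). At an absolute log2 fold change above 1, the counts were 1 for spleen genotype, 6 for lung genotype, 6 for averaged genotype, 6 higher and 3 lower for Vps34-deficient tissue, and 7 higher and 3 lower for averaged tissue. With at least 50 counts in 2 libraries, 1 control tissue peak, 3 Vps34-deficient tissue peaks and 2 averaged tissue peaks were lower. Fitting the spleen libraries alone gave 4 lower, and GC offsets and the 50 kb window gave 8 lower in Vps34-deficient tissue. Leaving out each library gave ranges of 1 to 3 lower in spleen genotype, 4 to 17 in lung genotype, 8 to 11 averaged, 5 to 14 higher and 1 to 2 lower in control tissue, 6 to 10 and 2 to 6 in Vps34-deficient tissue, and 10 to 16 and 3 to 9 averaged. The lung count was 4 without control 2 or Vps34-deficient library 1, 7 without Vps34-deficient library 2 and 17 without control 1, and the control tissue count was 5, 8 and 6 without spleen control 1, spleen control 2 and lung control 2. Some fold changes that passed no test changed sign. Runx1 +128.7 kb (spleen genotype, 0.01) was -0.00658 with median-of-ratios scaling, -0.00664 with DESeq2, -0.0349 without a filter, -0.00688 with at least 50 counts, -0.0375 with halved counts, -0.0336 on autosomes, -0.0120 with GC offsets and -0.0306 in spleen alone. Runx3 +32.0 kb (spleen genotype, 0.01) was -0.0238 without a filter, -0.0129 with halved counts, -0.0209 on autosomes, -0.00661 with a chromosome Y covariate, -0.0450 with GC offsets, -0.0526 with the replicate block and -0.0181 in spleen alone. Cbfb +0.3 kb (lung genotype, -0.02) was 0.00696 with library size scaling, 0.0179 with median-of-ratios, 0.0167 with DESeq2, 0.0460 with at least 50 counts, 0.0157 with halved counts and 0.0458 with GC offsets. Leaving out each library gave -0.104 to 0.0365 and -0.123 to 0.0562 for the first pair and -0.0248 to 0.130 for Cbfb +0.3 kb, and in lung -0.0789 to 0.634 for Runx1 +128.7 kb, -0.48 to 0.10 for Runx2 +80.1 kb (-0.32 with all libraries) and -0.72 to 0.14 for Cbfb +17.1 kb (-0.39). The cause was not tested. Low counts limit the fold change at Runx3 +48.6 kb.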
